A study of Mus musculus with 40 samples.

Results

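The epidermal differentiation complex is a cluster of genes on mouse chromosome 3 that encode precursors of the cornified cell envelope and calcium-binding S100 proteins. Its members were taken by symbol as the protein-coding genes that begin with Sprr, Lce or S100a, together with Ivl, Loricrin, Flg, Flg2, Crnn, Rptn, Hrnr, Tchh and Tchhl1. The rule found 62 genes among the 53647 listed identifiers, all between positions 90416091 and 93474510 of chromosome 3 in GRCm39, a span of 3.058 Mb. They comprised 15 S100a genes, 17 Sprr genes, 21 Lce genes, Ivl and Loricrin, and 7 fused-type S100 genes (Crnn, Flg, Flg2, Hrnr, Rptn, Tchh and Tchhl1). S100a7l2 and Sprr4 had no count in any library, and Sprr2j-ps carries a pseudogene symbol but is annotated as protein coding.

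Bulk poly-A RNA-seq was available for the larynx, esophagus and trachea of wild-type FVB/N mice in 40 libraries. All 3 tissues were sampled at E10.5 (the laryngeal piece being named primitive laryngopharynx there), at E11.5 and E13.5, and at both E15.5 and E18.5, and laryngeal samples, also named vocal fold, were added at birth (P0) and from adults of 6 to 8 weeks. Pools of 10 embryos were used, or of 20 at E15.5, and no pool size was found for P0 and adult tissue, so a library averages over animals and over every cell type of the piece. The sample names are of 2 kinds, ending in a short code (30 libraries, 2 for each tissue at each embryonic age) or in a sequencing index (10 libraries, 2 each of E15.5 esophagus, trachea and larynx and of P0 and adult larynx). Libraries of a group are called library 1 and library 2 here. The study calls the libraries of a group biological replicates. Nothing in the labels ties them to separate litters, so part of the spread behind a p-value may be technical. A lower level in such a sample can reflect fewer cells of a type or less RNA per cell, and these cannot be told apart.

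In stratified epithelia, cells leaving the basal layer load their cytoplasm with involucrin, loricrin, small proline-rich (Sprr) and late cornified envelope (Lce) proteins, which transglutaminases crosslink under the plasma membrane into an insoluble envelope. Fused-type S100 proteins such as filaggrin, hornerin and repetin join an S100 domain to long repeats and bind keratin or the envelope, whereas single S100 proteins are small calcium sensors, many of them present in simple epithelia, stroma or leukocytes as well. Mouse esophagus and parts of the larynx are lined by stratified squamous epithelium, while the trachea is lined by pseudostratified respiratory epithelium.

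The promoters of the 4 members with the largest fitted rise from E13.5 to E18.5 in the esophagus (Sprr3, Rptn, Sprr1a and Lce3a) are shown because those genes lead the fitted changes of that step, although S100a genes supplied more of the summed level. Each sequence holds the 250 bases before the annotated gene start in GRCm39, written 5′ to 3′ on the gene's strand, with matches to 4 short motifs in capitals. Sprr3 lies at chr3:92366032-92366281 on the minus strand, Rptn at chr3:93300756-93301005 on the plus strand, Sprr1a at chr3:92393209-92393458 on the minus strand and Lce3a at chr3:92833538-92833787 on the minus strand.
Sprr3: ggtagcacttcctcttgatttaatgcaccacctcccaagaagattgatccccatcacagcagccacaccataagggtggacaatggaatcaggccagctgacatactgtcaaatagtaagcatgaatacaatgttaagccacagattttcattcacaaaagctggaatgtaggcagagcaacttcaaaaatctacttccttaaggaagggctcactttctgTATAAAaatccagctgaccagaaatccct
Rptn: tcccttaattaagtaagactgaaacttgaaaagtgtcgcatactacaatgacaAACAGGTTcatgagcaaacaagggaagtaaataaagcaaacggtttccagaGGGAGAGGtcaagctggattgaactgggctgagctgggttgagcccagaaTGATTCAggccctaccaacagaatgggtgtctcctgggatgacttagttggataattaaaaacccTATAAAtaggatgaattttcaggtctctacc
Sprr1a: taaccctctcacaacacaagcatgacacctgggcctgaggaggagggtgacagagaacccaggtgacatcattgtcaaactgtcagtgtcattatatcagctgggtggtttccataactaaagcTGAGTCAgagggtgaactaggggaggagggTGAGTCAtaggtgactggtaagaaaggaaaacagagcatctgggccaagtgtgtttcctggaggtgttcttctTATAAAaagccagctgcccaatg
Lce3a: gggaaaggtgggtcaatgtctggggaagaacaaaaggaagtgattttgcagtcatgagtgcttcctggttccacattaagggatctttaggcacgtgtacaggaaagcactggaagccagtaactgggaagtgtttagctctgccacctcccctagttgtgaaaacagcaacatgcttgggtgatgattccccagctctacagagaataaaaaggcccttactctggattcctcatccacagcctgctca

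The motifs were searched by their letters on both strands, where N stands for any base. The AP-1 letters TGANTCA were found in Sprr1a at 126 to 120 and at 96 to 90 bases before the start, and in Rptn at 96 to 90 bases. The TATA letters TATAAA were found in Sprr3 at 29 to 24 bases, in Rptn at 31 to 26 bases and in Sprr1a at 23 to 18 bases before the start. Rptn also held the grainyhead-like letters AACNNGTT at 197 to 190 bases and the Krüppel-like letters GGGNGNGG at 146 to 139 bases, and Lce3a held none of the 4 motifs. Over the same window, TGANTCA was present in 19 of the 62 member promoters (30.6%) and in 6.19% of the 21626 promoters of protein-coding genes. TATAAA was present in 25 members (40.3%) and in 11.95% of all promoters. The order was the other way for GGGNGNGG, found in 13 members (21%) and in 48.77% of all promoters, and AACNNGTT was found in 3 members (4.8%) and in 3.72%. Members share ancestry and in part sequence, so their promoters are not independent, and a match of letters says nothing of binding.

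Levels are given as normalised CPM, the expected count as a share of the library's total after median-ratio scaling, for library 1 and then library 2 of a group. Differences are fitted log2 fold changes ± SE from edgeR's quasi-likelihood test, and a member was called at a Benjamini-Hochberg adjusted p under 0.05 over all genes tested. A fold against a group in which both libraries had 0 counts is a lower bound, computed against 3 counts in each library. Totals ran from 3286403 expected counts in library 1 of E11.5 larynx to 35831491, so that 3 counts were worth 0.0635 to 0.733 CPM. Mitochondrial ribosomal RNA also separated the 2 kinds of library, and the comparisons between groups were made within a kind, whereas the age splines used both.

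Some pairs of libraries stood apart in their epithelial content, and this bears on the members. The summed CPM of 8 suprabasal mucosal markers (Krt4, Krt13, Krt6a, Krt78, Ly6d, Lypd3, Mal and Anxa8) was 3119 and 7521 in the E18.5 larynx libraries, 6864 and 13145 in E18.5 esophagus, and 2880 and 1377 in E18.5 trachea. In short-code E15.5 trachea it was 30.6 in library 1 and 792 in library 2, with 6 respiratory markers at 2.58 and 666, so that library 1 of that pair held little epithelial RNA of either kind. It was 4427 and 2200 at P0, and 900 and 294 in index E15.5 larynx. Library 2 of E11.5 larynx had counts in 1108 of 1193 olfactory receptor genes, with 1012 in library 2 of short-code E15.5 trachea and 685 in library 2 of short-code E15.5 larynx, against at most 321 elsewhere, and it carried 1.08 to 2.44 CPM each of Flg, Flg2, Hrnr and Rptn. Index library 2 of E15.5 esophagus departed from every other E15.5 library and is described apart at the end; no test below includes it unless stated.

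Summed over the 62 members, the complex was lowest at E10.5 and higher at each of the next 3 ages. The sum was 24.3 to 39.2 CPM in the 6 libraries of E10.5, 63.6 to 84.2 at E11.5 and 150 to 212 at E13.5. At E15.5, short-code libraries held 821 and 936 CPM for esophagus, 411 and 390 for trachea, and 558 and 669 for larynx. At E18.5 the esophagus reached 864 and 1422, the larynx 533 and 1278, and the trachea 556 and 579. In index libraries, laryngeal sums stood at 501 and 468 CPM for E15.5, at 1535 and 788 for P0 and at 6041 and 5421 for adults.

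The composition of that sum differed by age. At E13.5 single S100a genes supplied nearly all of it, with 148 to 210 CPM against 1.65 CPM or less from Sprr genes and 0.0555 CPM or less from Lce genes. In short-code libraries the Sprr sum of the esophagus was 53.9 and 57.4 CPM at E15.5, when its Lce sum was 0 and 0.149 CPM. In the short-code larynx of the same age the Sprr sum was 45.7 and 107 CPM and the Lce sum was 13.2 and 28.9 CPM. Index libraries of E15.5 had Sprr sums of 4.96 CPM in esophagus (library 1) and 24.1 and 2.28 in larynx. Their Lce sums were 0.615 CPM in that esophagus library and 5.35 and 0.366 in larynx. At E18.5 the Lce sum was 23.8 and 7.15 CPM in the esophagus, 12.6 and 89.2 in the larynx, and 0.511 and 0.150 in the trachea.

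**Figure D1:**
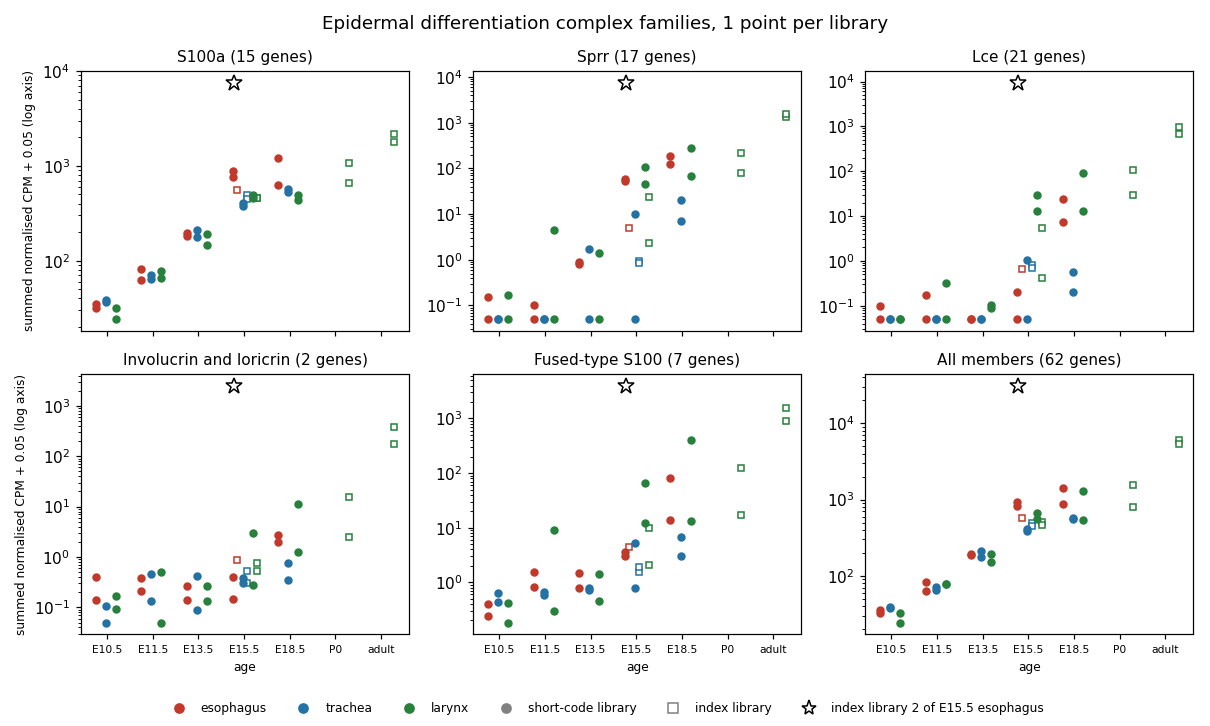
Summed normalised CPM of each family and of all 62 members (log axis, 0.05 added) against age, with 1 point per library, filled circles for short-code and open squares for index libraries, coloured by tissue. S100a genes climb from 24.1 to 38.7 CPM at E10.5 in all tissues. Sprr sums are at most 1.65 CPM at E13.5 and reach 53.9 and 57.4 CPM in short-code E15.5 esophagus. The open star is index library 2 of E15.5 esophagus, at 30955 CPM for all members.

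The earliest movement belonged to the S100a genes. From E10.5 to E13.5, averaged over the 3 tissues, 15 of the 55 members tested were higher and none lower, where 16.1% of all 35539 genes tested were called higher, so the share over all members was not far from that of the genome. By family, however, 12 of 14 S100a genes were called, against 2 of 16 Sprr genes (Sprr2a2 and Sprr2a3), 1 of 7 fused-type genes (Tchh) and 0 of 16 Lce genes. The median fitted change of the S100a genes was 2.99 and that of all genes was -0.03. The count ranged from 11 to 16 when single libraries were left out, and 10 S100a genes were called in every such fit and every other setting.

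S100a10, the light chain of the annexin A2 tetramer, and S100a11, a partner of annexin A1, were the most abundant members at E10.5, at 11.1 to 15.9 and 4.44 to 10.9 CPM over 6 libraries. At E13.5 they stood at 49.0 to 74.2 and 32.8 to 53.7 CPM. No library of the later age overlapped the earlier ones, and 11.8% of all genes counted were likewise separate and higher. The fitted changes were 2.13 ± 0.14 for S100a10 (adjusted p = 3.529e-11) and 2.59 ± 0.16 for S100a11 (adjusted p = 1.39e-11). S100a14, a membrane-associated epithelial S100 protein, had 1 count in the 6 libraries of E10.5 and 1.66 to 5.96 CPM at E13.5, a ratio of 366 whose counting interval of 83.7 to 18550 reflects that single count.

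S100a8 and S100a9, the calprotectin subunits of neutrophils and of stressed squamous epithelium, behaved differently from the rest of the family. S100a9 was at or below 0.560 CPM at E10.5 and at 3.51 to 13.8 CPM at E13.5. In the trachea it then went from 13.8 and 8.10 CPM at E13.5 to 0.767 and 1.60 at E18.5, and S100a8 from 8.58 and 7.57 to 1.09 and 1.35. Both fell there (S100a9 by 3.16 ± 0.81, adjusted p = 0.00769; S100a8 by 2.69 ± 0.83, adjusted p = 0.0274), and 6.33% of all genes did so. S100a9 also went from 10.4 and 3.51 to 1.01 and 2.81 CPM in esophagus, and from 4.35 and 7.10 to 0.823 and 3.44 in larynx. For S100a8 these were 6.62 and 2.19 to 1.26 and 1.70, and 2.07 and 4.99 to 0.972 and 2.35. No member was called lower in esophagus or larynx. In between, the short-code E15.5 trachea libraries held 56.7 and 17.1 CPM of S100a9, and the index ones 3.08 and 1.91. Of 8 neutrophil genes, 6 were higher at E13.5 than at E10.5 and 3 were lower at E18.5 than at E13.5 in the trachea; the summed list was not lower there (398 and 871 CPM at E18.5), since Ltf, which epithelium also makes, supplied 398 and 870 of it. The part of neutrophils in the S100a8 and S100a9 levels was not tested.

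From E13.5 to E18.5 some S100a genes rose in each tissue. In the esophagus 8 of 14 tested were higher (8.75% of all genes), in the larynx 6 (8.02%), and in the trachea 7 (9.18%) with 2 lower. S100a6 (calcyclin), the member with the highest mean level over all libraries among S100a genes, went from 12.1 and 14.5 to 186 and 497 CPM in the esophagus, from 18.3 and 16.5 to 174 and 257 in the trachea, and from 15.497 and 19.8 to 77.4 and 106 in the larynx. The 2 ages did not overlap in any tissue. Of all genes counted, 34.6% in esophagus, 39.9% in trachea and 34.7% in larynx were likewise separate and higher. The fitted changes of S100a6 were 4.72 ± 0.44, 3.66 ± 0.42 and 2.39 ± 0.40 (adjusted p = 1.594e-07, 2.332e-06 and 0.000172), and in each tissue it was called in every alternative and with every library left out.

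S100a14 rose in each tissue as well. It stood at 5.96 and 4.56 CPM in E13.5 esophagus and at 80.9 and 161 at E18.5, at 4.60 and 2.27 against 52.3 and 32.1 in the trachea, and at 3.09 and 1.66 against 37.4 and 52.8 in the larynx. The fitted changes were 4.56 ± 0.87, 3.61 ± 0.85 and 4.24 ± 0.88 (adjusted p = 0.000718, 0.00443 and 0.00182). S100a16 and S100a4, also known as fibroblast-specific protein, and S100a10 were called in each tissue, with fitted changes between 0.86 and 3.19. S100a1 was called in the esophagus (2.34 ± 0.50) and trachea (1.70 ± 0.49), S100a3 in the same 2 tissues and S100a11 in the esophagus (0.94 ± 0.26). S100a13 and S100a2 were called in none of these 3 steps, and S100a5 did not exceed 0.756 CPM in any library. S100a1 and S100a13 overlap on opposite strands, S100a2 and S100a3 overlap on the same strand, and 24.2% of the 50-base windows of S100a4 transcripts also occur in Gm42674, so reads of these genes may be divided between them.

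Counted over all families, 20 of 55 members tested were higher at E18.5 than at E13.5 in the esophagus, where 8.75% of 35539 genes were called higher. In the larynx 22 of 55 were higher, against 8.02% of genes. In the trachea 10 of 55 were higher, against 9.18% of genes, and 2 were lower. The median fitted change of the members was 3.70 in the esophagus, 4.28 in the larynx and 0.57 in the trachea, or 2.81, 2.39 and 0.48 with genes at 0 in one group set to their bound, and that of all genes was 0.00 in each. Some single libraries moved these counts by over 1.5 times, in each such case to fewer calls. In the esophagus 11 remained without library 2 of E13.5 and 13 without library 1 of E13.5 or library 1 of E18.5. In the larynx 11 remained without library 2 of E18.5 and 12 without either library of E13.5. In the trachea 6 remained without library 2 of E13.5 or library 1 of E18.5, and 7 without library 1 of E13.5. DESeq2 called 12, 14 and 10 members in the esophagus, larynx and trachea.

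**Figure D2:**
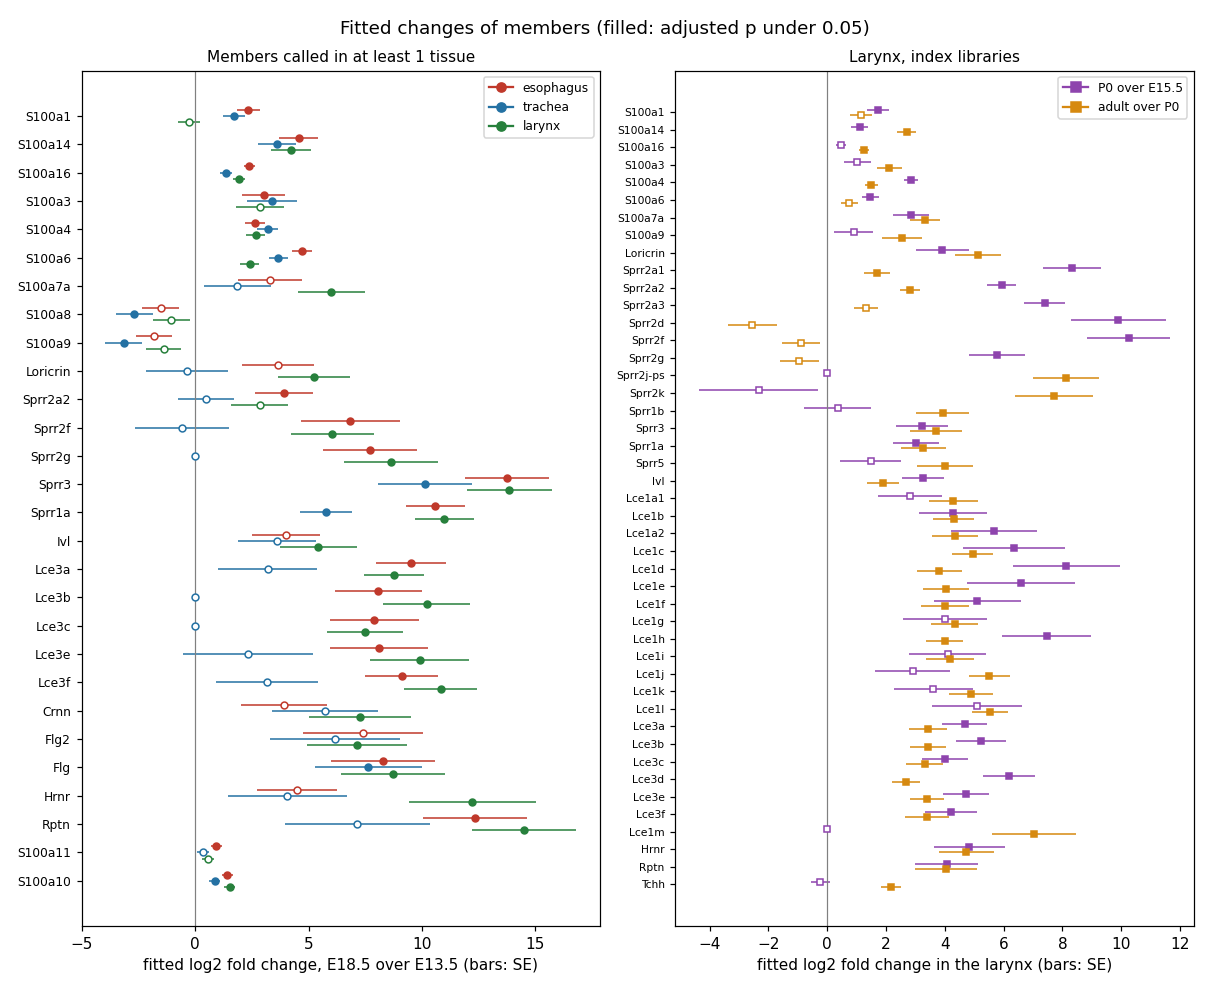
Fitted log2 fold changes with SE bars of members called in at least 1 tissue from E13.5 to E18.5 (left, coloured by tissue) and of members called in the larynx from E15.5 to P0 or from P0 to adult (right); filled symbols have an adjusted p under 0.05. S100a genes such as S100a6 (4.72, 3.66 and 2.39) are filled in all tissues, while Lce3 genes are filled in esophagus and larynx; the largest values belong mostly to genes with 0 counts at the earlier age and are not bounds.

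Among the small proline-rich genes, Sprr3 gave the clearest sequence of levels in short-code libraries. It had 0 counts in all 6 libraries of E13.5, which allows at most 0.118 to 0.227 CPM. At E15.5 the short-code libraries held 40.8 and 40.5 CPM in the esophagus, 25.4 and 73.1 in the larynx, and 0 and 4.87 in the trachea. At E18.5 they held 80.8 and 114, 38.1 and 171, and 12.7 and 3.15. Thus esophagus and larynx overlapped each other at both ages and lay above the trachea in these libraries. Index libraries of E15.5 held 1.59 CPM in esophagus (library 1), 9.88 and 0.563 in larynx, and 0.239 and 0.254 in trachea. The E15.5 level in esophagus and larynx therefore differed between the kinds of library. The rise from E13.5 to E18.5 was at least 724-fold in the esophagus (adjusted p = 9.151e-05), at least 723-fold in the larynx (adjusted p = 9.781e-05) and at least 45.9-fold in the trachea (adjusted p = 0.0027).

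Sprr1a, the cornifin precursor that is induced early in squamous differentiation, followed the same course. It had 1 count in the E13.5 esophagus pair, 1 in the larynx pair and 3 in the trachea pair. In short-code libraries it reached 7.96 and 11.7 CPM at E15.5 and 34.4 and 55.3 at E18.5 in the esophagus. The larynx held 17.1 and 27.8 and then 26.6 and 96.0, and the trachea 0 and 2.76 and then 5.37 and 3.496. Index libraries of E15.5 held 2.69 CPM in esophagus (library 1), 12.1 and 1.38 in larynx, and 0.425 and 0.402 in trachea. The ratio of mean CPM between E18.5 and E13.5 was 1966 in the esophagus (counting interval 357 to 78880), 3014 in the larynx (490 to 107900) and 75.1 in the trachea (18.7 to 272). All were called, at adjusted p values of 1.567e-05, 9.847e-06 and 0.0015.

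The Sprr2 genes, a group of short and closely related envelope precursors, stayed low before birth. Sprr2a2, their most abundant member, held 3.78 and 7.49 CPM in E18.5 esophagus, 2.62 and 2.29 in the larynx and 0.958 and 0.300 in the trachea. It was called in the esophagus (3.90 ± 1.28, adjusted p = 0.0475), together with Sprr2g and Sprr2f, which were called in the larynx too. Of the 50-base windows of Sprr2a1, Sprr2a2 and Sprr2a3 transcripts, 96.8%, 94.0% and 61.1% occur in another gene, so the division of counts among them is uncertain. Sprr5, Sprr1b and the other Sprr genes were not called in any tissue over this step, and, beside the uncounted Sprr4, 7 of them (Sprr2b, Sprr2d, Sprr2e, Sprr2h, Sprr2i, Sprr2j-ps and Sprr2k) did not exceed 0.596 CPM in any E18.5 library.

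Involucrin and loricrin, the classic early and late envelope components of skin, were scarce before birth. Ivl held 0.504 and 1.79 CPM in E18.5 esophagus, 0.447 and 0.300 in the trachea and 0.748 and 1.78 in the larynx. Loricrin held 1.43 and 0.936, 0.256 and 0, and 0.449 and 9.35. Both were called in the larynx alone (Ivl 5.44 ± 1.69, adjusted p = 0.0334; Loricrin 5.24 ± 1.60, adjusted p = 0.0305), and both calls were lost without library 2 of E18.5 larynx. The test of the difference between tissues in this rise, given below, called neither.

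The late cornified envelope genes separated into their subfamilies. Lce3f held 6.22 and 1.53 CPM in E18.5 esophagus, 5.31 and 20.4 in the larynx and 0.0639 and 0.0499 in the trachea, the last being 1 count each. Lce3a held 6.13 and 4.17, 4.04 and 21.95, and 0.128 and 0, and Lce3b held 3.19 and 0.596, 1.35 and 15.4, and 0 and 0. Against E13.5 the rise was at least 28.8-fold for Lce3f and at least 38.2-fold for Lce3a in the esophagus, and at least 89.0-fold for Lce3f in the larynx. In each of these 2 tissues 5 of 16 Lce genes tested were called, the same 5 (Lce3a, Lce3b, Lce3c, Lce3e and Lce3f), and in the trachea none was. Lce3d, the remaining member of its subfamily, held 0.588 and 0 CPM in the esophagus and 0.0748 and 1.97 in the larynx.

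The 14 Lce1 genes had fewer counts than the 6 Lce3 genes in E18.5 larynx and esophagus and in P0 and adult larynx. At E18.5 they made up 1.19% and 7.28% of all Lce1 and Lce3 counts in the larynx libraries (exact 95% binomial intervals 0.14 to 4.23 and 5.97 to 8.76) and 5.30% and 0% in the esophagus (3.00 to 8.59 and 0 to 4.30). The share was 11.66% and 4.53% at P0 and 20.08% and 15.47% in adult larynx, so that both adult libraries lay above the P0 and E18.5 libraries named. In E18.5 trachea there were only 4 and 2 Lce1 counts beside 4 and 1 Lce3 counts, and in index library 1 of E15.5 esophagus 11 beside 18, too few to place the share (20.69 to 57.74 in the latter). These intervals cover counting error only. From 32.7% to 49.3% of the 50-base windows of Lce3c, Lce3d, Lce3e and Lce3f occur in another gene, mostly of the same subfamily. Lce6a had at most 1 or 2 counts in any library, and Lce1m had none before adulthood outside the library described apart.

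Among the fused-type S100 genes, repetin (Rptn), an envelope precursor of tongue and stomach epithelia, moved most. It had 0 counts at E13.5 in all 6 libraries. In short-code libraries of E15.5 it held 1.15 and 1.19 CPM in esophagus, 0 and 1.62 in trachea, and 11.2 and 51.1 in the larynx. Index libraries of that age held 0.424 CPM in esophagus (library 1), 0.611 and 0.529 in trachea, and 6.40 and 0.422 in the larynx. At E18.5 the values were 62.2 and 10.6, 1.21 and 0.799, and 8.97 and 322, so the 2 larynx libraries of E18.5 spanned those of the esophagus. The rise was at least 270-fold in the esophagus (adjusted p = 0.000961) and at least 1149-fold in the larynx (adjusted p = 0.000258).

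Hornerin (Hrnr), a filaggrin-like protein of the granular layer, held 11.7 and 0.425 CPM in E18.5 esophagus, 0.767 and 0.300 in the trachea and 0.897 and 67.1 in the larynx. It was called in the larynx (at least 236-fold, adjusted p = 0.00504) on a pair of libraries that differed widely, and not without library 2. Filaggrin (Flg) was called in each tissue at low levels, 3.44 and 0.936, 2.36 and 0.450, and 2.24 and 3.69 CPM, and Crnn and Flg2 in the larynx only. Library 2 of E18.5 larynx also carried more of the basal, suprabasal, skin and respiratory lists than library 1 (fused-type genes 405 against 13.3 CPM, suprabasal markers 7521 against 3119, respiratory markers 365 against 7.40), and the part of this in the laryngeal calls was not tested. In E18.5 esophagus the members went both ways. Library 1 was above library 2 for Rptn, Hrnr and Lce3f, and below it for Sprr3, Sprr1a, S100a14 and Crnn. Suprabasal markers were lower in library 1 (6864 against 13145 CPM), and their relation to the members was not tested. Tchh stayed between 0 and 1.92 CPM in the short-code libraries, and Tchhl1 never exceeded 0.181.

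**Figure D3:**
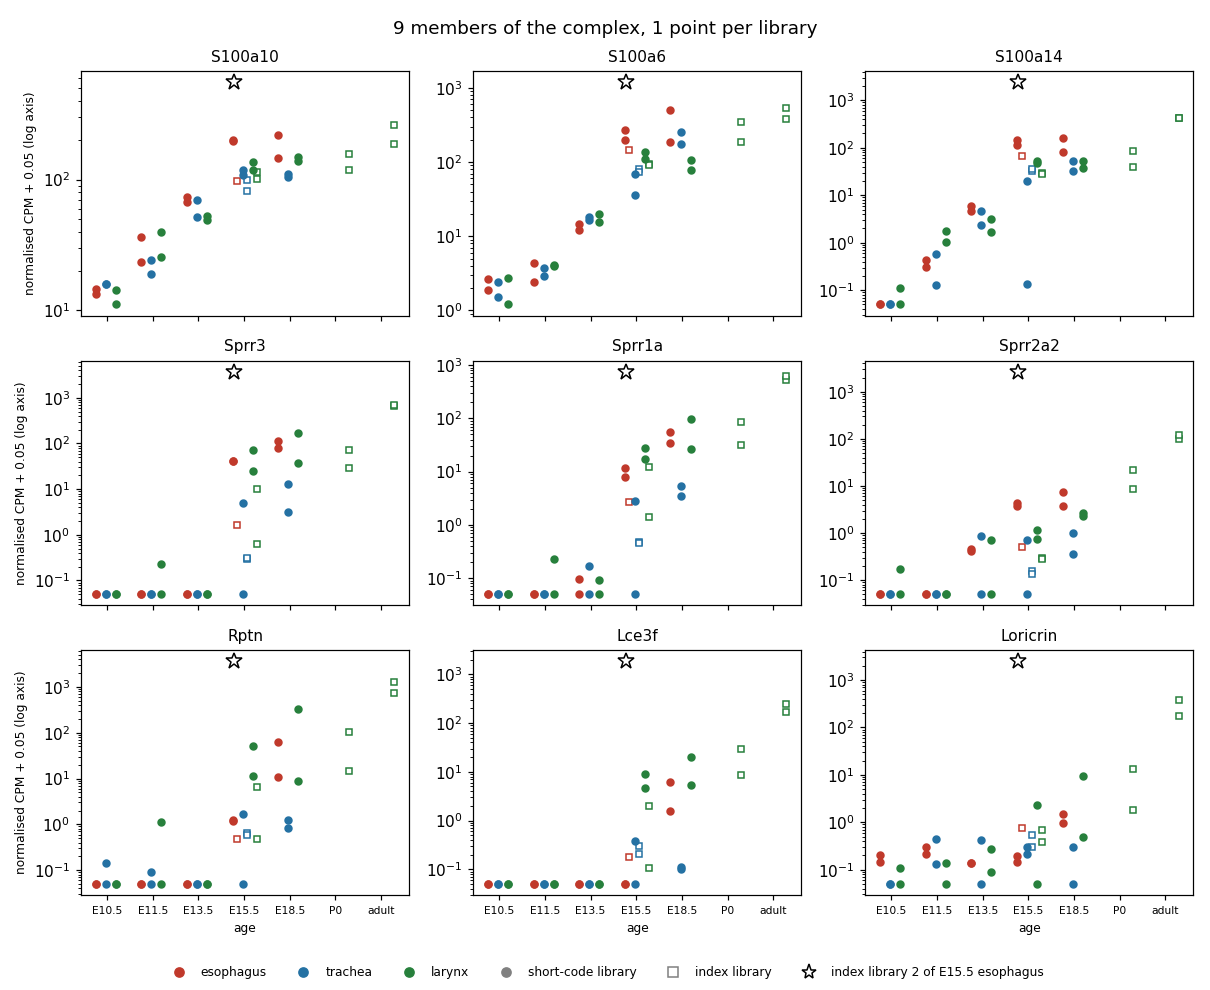
Normalised CPM (log axis, 0.05 added) of 9 members against age, with 1 point per library, circles for short-code and squares for index libraries, coloured by tissue. S100a10 and S100a6 are present in all libraries from E10.5, Sprr3 and Sprr1a first exceed 1 CPM at E15.5, and Lce3f and Loricrin are highest in adult larynx (241 and 170, 385 and 171 CPM) apart from the starred index library 2 of E15.5 esophagus.

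Between tissues, E18.5 larynx exceeded E18.5 trachea for 6 of 55 members and was lower for none, where 0.172% of all genes were called higher. These were Lce3b (at least 49.0-fold), Lce3c (at least 32.7-fold), Lce3f (ratio 226, counting interval 65.9 to 1987), Lce3a (203, 67.3 to 2027), Rptn (165, 131 to 261) and Sprr1a (13.8, 12.6 to 17.6), with adjusted p values from 0.0105 to 0.0430. The intervals cover counting error only and not the spread between libraries. For Rptn the libraries held 8.97 and 322 CPM against 1.21 and 0.799, and for Sprr1a 26.6 and 96.0 against 5.37 and 3.496. The call is fragile at 2 libraries a group: none of the 6 passed without library 2 of the larynx or either library of the trachea, 2 passed without library 2 of E11.5 larynx, and 12 members passed without library 1 of E15.5 trachea. DESeq2 called 0 members, and with no filter on low counts 14 passed. Of 6 respiratory markers, 3 were lower in the larynx (the secretoglobins Scgb1a1, Scgb3a1 and Scgb3a2), and Nkx2-1 stood at 0 and 0.127 CPM against 5.24 and 4.45 (adjusted p = 0.0886).

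Esophagus and trachea at E18.5 were not separated by the test. None of 55 members was called, 16 had an unadjusted p under 0.05, and 0% of all genes were called higher (1227 of all genes had an unadjusted p under 0.05). DESeq2 called 42 genes, with 0 members among them, and with no filter on low counts 13 members passed. The members with the lowest p were Lce3a (6.32 ± 1.21, adjusted p = 0.227), Lce3f (5.94 ± 1.25, adjusted p = 0.343) and Sprr1a (3.34 ± 0.79, adjusted p = 0.343). Without library 1 of E15.5 trachea 8 members passed, and without library 2 of E15.5 trachea or library 1 of E11.5 larynx 1 did.

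Larynx and esophagus at E18.5 differed in 1 member. S100a6 was lower in the larynx, 77.4 and 106 against 186 and 497 CPM (-1.90 ± 0.39, adjusted p = 0.0394), where 0.211% of genes were called lower, and no member was among the 0.0169% called higher. DESeq2 also called 1 member, and with no filter 5 passed. The call was lost without any 1 of 12 libraries (library 1 of E10.5 esophagus, library 2 of E11.5 larynx, of E15.5 larynx or of E18.5 esophagus, and either library of E11.5, E13.5 or E18.5 trachea or of E18.5 larynx), and 2 members passed without library 1 of E15.5 trachea.

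At E15.5, where esophagus and trachea were compared after the levels had been seen, 5 members were higher in the esophagus and none lower, against 1.33% of genes called higher. They were Sprr3 (4.11 ± 1.01, adjusted p = 0.0435), S100a14 (3.75 ± 0.84, adjusted p = 0.01997), S100a6 (2.23 ± 0.40, adjusted p = 0.00492), S100a16 (1.67 ± 0.26, adjusted p = 0.00173) and S100a10 (0.89 ± 0.23, adjusted p = 0.0415). The median of all genes in this comparison was -0.30, and whether that shift applies to these members was not tested. S100a14 held 116 and 149 CPM in esophagus, against 0.0832 and 20.3 in trachea. Basal epithelial markers summed to 1275 and 2023 CPM in these esophagus libraries and to 21.7 and 292 in the trachea, and 5 of 7 were called higher; their part in the difference was not tested. With no filter 11 members passed, with either library of the esophagus left out 2 did, and 8 or 9 passed without library 2 of E15.5 trachea or library 1 of E11.5 larynx.

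The other 2 comparisons at E15.5 called no member. For larynx against trachea 15 members had an unadjusted p under 0.05 and 0.00563% of genes were called higher, the nearest member being Lce3a (6.95 ± 1.32, adjusted p = 0.0953), DESeq2 called 3 members and 15 passed with no filter. For larynx against esophagus 13 had an unadjusted p under 0.05 and 0.0844% of genes were called higher, the nearest being Lce3f (at least 31.6-fold, adjusted p = 0.0546), DESeq2 called 0 and 11 passed with no filter. Lce3f stood at 4.70 and 9.11 CPM in the larynx and at 0 in both esophagus libraries, and Lce3a at 3.79 and 8.12 against 0 and 0.0993. Without library 1 of E15.5 trachea 7 members passed in larynx against esophagus and 2 in larynx against trachea. In the latter 9 passed without library 2 of E15.5 trachea or library 1 of E11.5 larynx. In the former 2 passed without library 1 of E18.5 larynx or library 1 of E11.5 larynx, and 1 without either E11.5, E13.5 or E18.5 esophagus library or library 2 of E15.5 trachea.

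Whether the rise from E13.5 to E18.5 differed between tissues was tested directly, also after the levels had been seen, and no member was called in any pair. For esophagus minus trachea 2 members had an unadjusted p under 0.05 and 0% of genes were called higher. For larynx minus trachea there were 4, with 0.00844% of genes, and for larynx minus esophagus 3, with 0.0169% of genes. The members nearest to a call were S100a6 (-2.33 ± 0.55, adjusted p = 0.119) and S100a1 (-2.61 ± 0.69, adjusted p = 0.189), with a smaller rise in larynx than in esophagus. DESeq2 called 0, 0 and 2 members, and with no filter 3 passed for each of the latter pairs. Without library 1 of E15.5 trachea, 1 member passed for larynx minus trachea and 2 for larynx minus esophagus, and 1 passed in the latter without library 1 of E18.5 esophagus or library 1 of E11.5 larynx. The larger counts of esophagus and larynx than of trachea are therefore not shown to reflect a different rise.

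After E15.5 the larynx was followed in index libraries. The index E15.5 pair, the baseline here, held less Sprr and Lce RNA than the short-code pair of that age. Sprr sums were 24.1 and 2.28 CPM against 45.7 and 107, and Lce sums 5.35 and 0.366 against 13.2 and 28.9. S100a sums were close, at 461 and 462 against 487 and 462. P0 Sprr sums of 216 and 80.7 CPM overlapped the short-code E15.5 ones, so the size of the rise depends on this baseline. From E15.5 to P0, 30 of 58 members tested were higher and none lower, against 8.80% of 27673 genes called higher. By family they were 13 of 20 Lce, 8 of 16 Sprr, 5 of 14 S100a, 2 of 6 fused-type genes, Ivl and Loricrin. The median fitted change of members was 3.71, or 2.97 with bounds, and that of all genes was 0.06. Without library 1 of P0, the one with more suprabasal marker RNA (4427 against 2200 CPM), 10 members remained (S100a4, Sprr2a1, Sprr2a2, Sprr2a3, Sprr2f, Sprr2g, Lce3a, Lce3b, Lce3d and Lce3e), and without library 2 of E15.5 larynx 15 did.

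Of the 12 Sprr2 genes, 6 were called in that step (Sprr2a1, Sprr2a2, Sprr2a3, Sprr2d, Sprr2f and Sprr2g). Sprr2a2 went from 0.240 and 0.225 to 21.6 and 8.69 CPM (5.93 ± 0.49, adjusted p = 0.00042), and Sprr2a3 from 0.0300 and 0.0563 to 11.6 and 5.08 CPM. Sprr2f, with 0 counts in both E15.5 libraries, reached 7.55 and 1.64 CPM (at least 52.7-fold) and Sprr2d reached 5.12 and 2.08 (at least 41.2-fold). Sprr2d was lower again in adults, at 0.124 and 1.09 CPM, and Sprr2g went from 6.79 and 2.04 to 2.81 and 1.92, neither difference passing the test. Rptn went from 6.40 and 0.422 to 104 and 14.6 CPM (4.06 ± 1.08, adjusted p = 0.0333) and Loricrin from 0.631 and 0.338 to 13.49 and 1.75 (3.92 ± 0.91, adjusted p = 0.0192). Sprr3 went from 9.88 and 0.563 to 73.6 and 28.4 CPM (3.22 ± 0.89, adjusted p = 0.0379). Library 1 of E15.5 larynx was the higher of its pair for Rptn, Loricrin and Sprr3, and it also held more hard keratin RNA (27.2 against 2.03 CPM, of which Krt84 gave 17.5).

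From P0 to adult, 39 of 58 members were higher and none lower, against 10.9% of genes. All 20 Lce genes tested were called, with 8 Sprr, 6 S100a and 3 fused-type genes, Ivl and Loricrin. The median fitted change was 3.04, or 2.76 with bounds, and that of all genes was -0.02. The count was 27 without library 2 of P0 and at most 41 with any other library left out. Loricrin climbed from 13.49 and 1.75 to 385 and 171 CPM (5.13 ± 0.79, adjusted p = 0.00181), and the Lce1 genes by 14.9 to 51.3-fold in mean CPM where P0 had counts. The Lce3 genes rose by less, from 6.66-fold for Lce3d to 11.2-fold for Lce3b; whether this differs from the Lce1 rise was not tested. Lce1a1, the most abundant Lce1 gene, went from 1.98 and 0.146 to 29.97 and 14.3 CPM, and Lce3f from 29.4 and 8.47 to 241 and 170.

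Adult larynx held the highest levels of most members outside the library described apart. Sprr3 was at 668 and 701 CPM, Sprr1a at 526 and 619, Rptn at 1283 and 734, Hrnr at 284 and 153, and S100a14 at 430 and 419. TPM here divides by the merged length of all annotated exons of a gene, which can exceed the length of its transcripts. That length was 6944 bases for S100a10 and 2352 for S100a6, against 611 for Lce3f, so the order between families depends on it. On this scale the leading members of the adult libraries were Sprr3 (1850 and 1822), Lce3f (1340 and 887), Lce3a (1256 and 996) and Sprr1a (1085 and 1197). In E18.5 trachea, by contrast, the leading member was S100a6 (100 and 164 TPM), followed by other S100a genes, and Sprr3 reached 14.04 and 3.85 TPM. Ivl stayed at 2.97 and 6.23 CPM, Flg at 2.56 and 0.928 and Flg2 at 0.289 and 0.133 in adult larynx. S100a8 and S100a9 differed between the adult libraries, at 21.7 and 1.49 CPM and at 38.4 and 6.92 CPM, and so did the neutrophil granule gene Ngp (17.5 and 0.696); the part of neutrophils was not tested.

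Across all ages, a spline of age rank was called (adjusted p at most 0.01) for 20 of 37 members tested in the esophagus, where 15.2% of genes were called, for 8 of 37 in the trachea, where 11.49% were, and for 47 of 59 in the larynx, where 26.1% were. All 8 of the trachea were S100a genes (S100a1, S100a4, S100a6, S100a10, S100a11, S100a13, S100a14 and S100a16), and the same 8 were called in the other 2 tissues. The 20 of the esophagus added S100a3, Sprr2a2, Sprr3, Sprr1a, the 5 Lce3 genes named above, Flg, Hrnr and Rptn. The splines had no term for the kind of library. In the larynx P0 and adult exist only as index libraries, so that these ages and the kind cannot be told apart, and with short-code libraries only the count was 15. In the trachea 4 members remained without either library of E10.5 or library 1 of E11.5, and 5 without either library of E18.5.

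**Figure D4:**
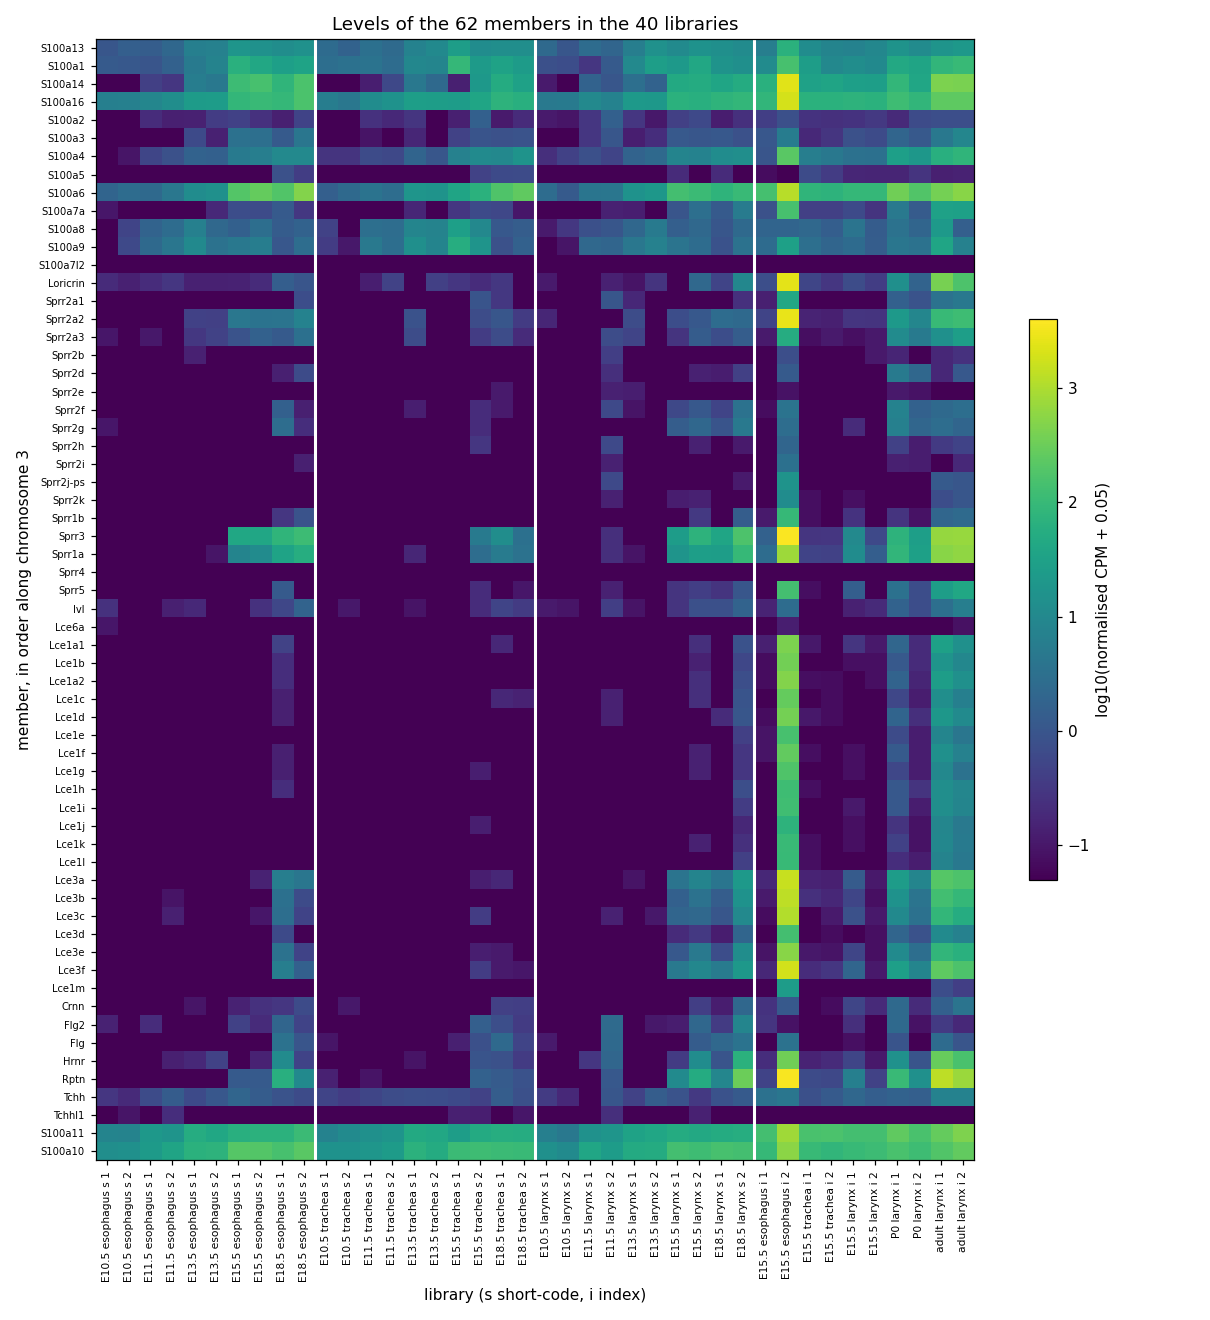
Log10 of normalised CPM + 0.05 for the 62 members (rows, in order along chromosome 3) in the 40 libraries (columns, grouped as short-code esophagus, trachea and larynx and then index libraries). Rows of S100a6, S100a10, S100a11 and S100a16 are bright in nearly every column, Lce3 rows mainly in short-code E15.5 and E18.5 larynx, E18.5 esophagus and P0 and adult larynx, and the column of index library 2 of E15.5 esophagus is the brightest for most rows.

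Genes that build or regulate the envelope but lie outside the rule were counted beside the members, and the same shares of all genes called (8.75%, 9.18% and 8.02% higher in esophagus, trachea and larynx) apply. Of 17 transglutaminases and envelope scaffolds, 14 were higher at E18.5 than at E13.5 in the esophagus, 13 in the trachea and 14 in the larynx, with none lower and median changes of 3.91, 3.52 and 5.19, beside members' medians of 3.70, 0.57 and 4.28. Tgm3, a transglutaminase that crosslinks Sprr proteins, stood at 203 and 409 CPM in E18.5 esophagus, 101 and 245 in the larynx and 87.1 and 20.98 in the trachea. All 17 were higher in adult larynx than at P0, and 9 were higher at P0 than at E15.5. Of 14 epidermal proteases and lipid barrier genes, 8, 4 and 11 were higher in esophagus, trachea and larynx over E13.5 to E18.5, 8 at P0 and 13 in adults.

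Of 16 regulators of squamous differentiation, 10, 7 and 10 were higher at E18.5 than at E13.5 in esophagus, trachea and larynx, 5 at P0 and 15 in adults. The factors whose letters were sought above were among them. Klf4 went from P0 values of 60.4 and 48.4 CPM to 201 and 196 in adults, and Grhl3, called in none of the embryonic steps, from 18.6 and 11.8 to 113 and 100. Of 8 S100 partners and receptors, 6, 6 and 5 were higher from E13.5 to E18.5; Anxa1 reached 873 and 2164 CPM in E18.5 esophagus, and the S100A6-binding gene Cacybp was lower in esophagus and trachea. Of the other genes of the complex, 1 of 6 (Crct1) was higher in esophagus and trachea and 2 (Crct1 and Kprp) in larynx, and all 5 tested were higher in adults than at P0. Of the other S100 genes 1 of 2 tested (S100b) was higher in each tissue.

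Cell type lists moved over the same step and could not be separated from the members in bulk tissue. All 8 suprabasal mucosal markers were higher at E18.5 in each tissue, with median changes of 9.51 in the esophagus, 6.88 in the trachea and 10.16 in the larynx, the last being 8.76 with genes at 0 in one group set to their bound. Their sums at E13.5 were 12.9 to 22.5 CPM in all tissues, against 1377 to 13145 at E18.5. Basal markers were called in 4, 5 and 7 of 7. Of 8 markers of skin epidermis, 2, 2 and 4 were called, with Krt2 at 0 in all 6 libraries of E18.5 except 1 count and Krt77 at most 0.168 CPM; Krt1 held 52.4 CPM in library 2 of E18.5 larynx and 6.88 in library 1. Respiratory markers were called in 4, 4 and 2 of 6, cartilage in 4, 6 and 5 of 6, skeletal muscle in 3, 4 and 6 of 6, macrophages in 1, 1 and 2 of 6, neutrophil genes in 1, 1 and 1 of 8 (with 2, 3 and 2 lower), and hard keratins in 2, 0 and 0 of 6. The part of these cell types in the members' levels was not tested.

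Index library 2 of E15.5 esophagus was kept out of the comparisons above because the rule that set the members shows it apart. For the same reason index library 1 of that pair was left out of the index fit. Library 2 did not resemble the other libraries of its tissue and age. Its members summed to 30955 CPM, against 567 in index library 1 and 821 and 936 in the short-code libraries, and also against 6041 and 5421 in adult larynx. Sprr3 stood at 3731 CPM (1.59 in library 1), Rptn at 3588 (0.424), Loricrin at 2478 (0.700), Lce3f at 1837 (0.127) and Lce3a at 1529 (0.127). Sprr2a2 was at 2683 CPM, S100a14 at 2442 and S100a16 at 1907. Of the 62 members, 55 were higher than in library 1, 1 (Flg2) was lower, and 6 had at most 3 counts in both. S100a8 differed least among the higher ones, at 1.88 and 1.82 CPM. The share of all genes higher in library 2 was not computed, so the count of members has no background to be set against.

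Some members stayed low in that library or differed little from library 1. Ivl was at 2.64 CPM (0.106 in library 1), Crnn at 1.11 (0.212), Flg at 3.45 (0), Tchh at 4.21 (3.29) and Flg2 at 0.0383 (0.233), and, beside S100a5 at 0, Flg2, Crnn, Tchh, Ivl, S100a3 and S100a8 were below the adult larynx mean, by ratios of 0.182, 0.411, 0.569, 0.575, 0.837 and 0.162. Lce1 genes were 10.7 to 49.3 times adult larynx and Lce3 genes 7.21 to 14.9 times. The Lce1 share of Lce1 and Lce3 counts was 32.47%, above both adult larynx libraries (20.08% and 15.47%) on counting error. In TPM, on the same merged exon lengths, the order was Sprr3 (5919), Lce3f (5847), Lce3a (5419), Lce3b (4381) and Lce3c (3681).

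Other genes differed along with the members. Krt4 was at 44286 CPM and Krt13 at 49947 in library 2, against 424 and 533 in library 1, and suprabasal markers summed to 98973 against 1244. Krtdap (6374 against 4.77 CPM) and Calm4 (2223 against 0.382) of the skin list were high while Krt1 (13.7), Krt10 (31.2) and Krt2 (0) were not. The embryonic myosin Myh3 was at 1.42 CPM against 1805 in library 1 and 0.867 and 0.563 in adult larynx, with Ckm, Acta1 and Tnnt3 at 6424, 14098 and 7912. Foxj1 was at 0.153 against 161, Nkx2-1 at 0.575, and cartilage markers summed to 11.1 CPM. The cause was not tested. With this library added to the esophageal spline, 6 members were called in place of 20, and with the pair added to the index fit, 0 in place of 30 and 39 in the larynx.

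**Figure D5:**
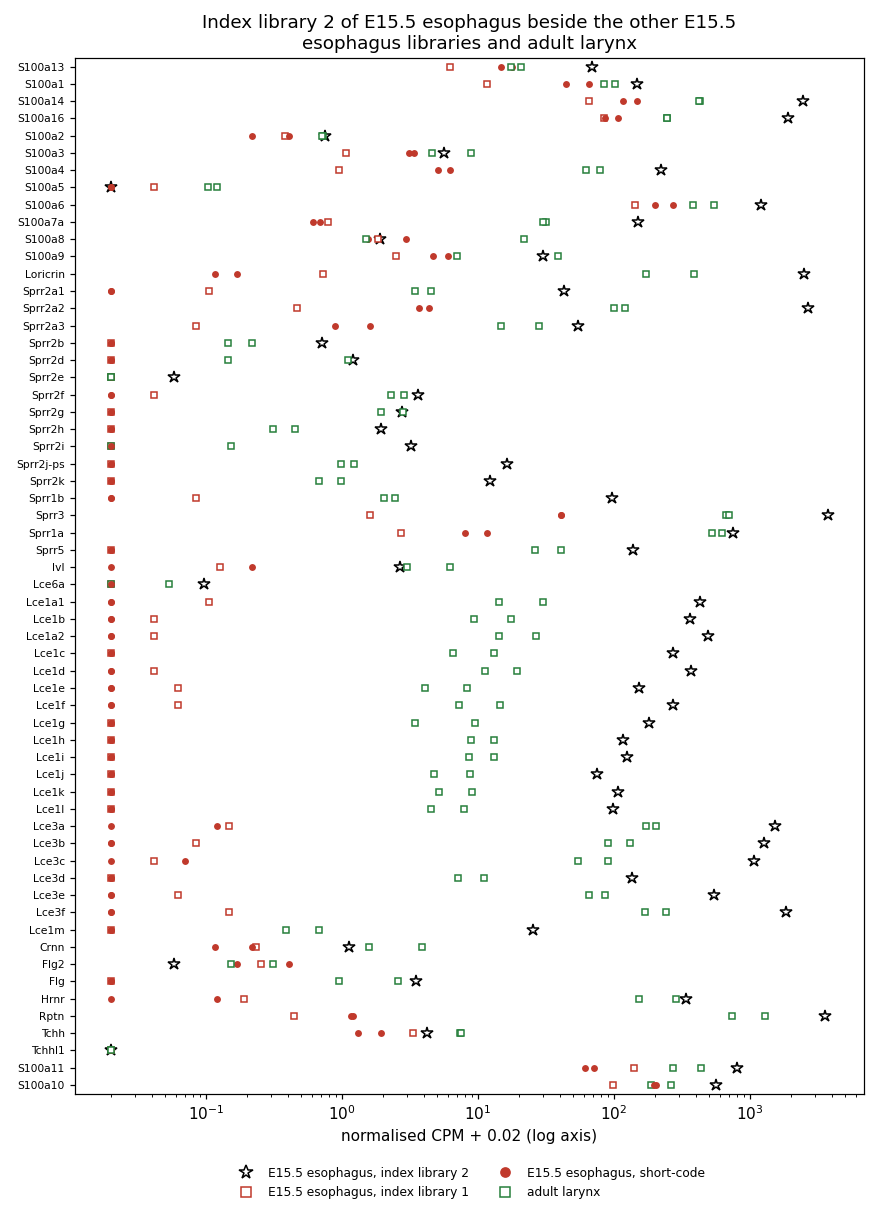
Normalised CPM (log axis, 0.02 added) of the 60 members with a count in any library, for index library 2 of E15.5 esophagus (stars), index library 1 (open red squares), the short-code E15.5 esophagus libraries (red circles) and adult larynx (open green squares). The stars lie to the right of the other esophagus symbols for nearly all members, for example Rptn at 3588 against 0.424 CPM in index library 1, and for most Sprr and Lce genes to the right of adult larynx as well.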

How the data were processed

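Tissue pieces of wild-type FVB/N mice were measured by poly-A RNA-seq in 40 libraries, grouped by the sample labels into tissue, age and kind of library name. The deposited values are RSEM expected counts per Ensembl gene, which the authors made with Bowtie2 2.4.2 and RSEM 1.3.3 according to the submitters' processing notes, on GRCm39. Which annotation release they used is not given here. Before fitting, the expected counts were made whole by rounding, and 52610 of 53647 identifiers were given symbols from GENCODE vM39.

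The printed levels were scaled with median-ratio (RLE) factors over all 40 libraries, from 15046 genes with a count in each, and every fit used RLE factors of its own libraries. Genes were tested where 2 or more libraries of a fit had a normalised count of 1 or more, with edgeR 4.0.16 (quasi-likelihood; R 4.3.3, limma 3.58.1), with Benjamini-Hochberg adjustment over all genes tested. The 30 short-code libraries were fitted as 15 groups of 2 (15 residual degrees of freedom, common dispersion 0.1102). The 8 index libraries of larynx and E15.5 trachea were fitted as 4 groups (4 residual degrees of freedom, common dispersion 0.0479). Splines of age rank (3 degrees of freedom) were fitted per tissue, in 11 libraries of esophagus, 12 of trachea and 16 of larynx, at an adjusted p of at most 0.01. The SE is the absolute log2 fold change over the square root of F. Intervals and floors cover counting error only, and a floor is 3 counts per library. TPM divided by the merged length of all annotated exons of a gene and was used only between genes of a library. The scripts were tested on simulated data.

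Alternatives were TMM factors, no filter, DESeq2 1.42.0, other sets of libraries, a replicate block and leaving out single libraries. When a short-code library was left out, the dispersion trend of the whole set was kept and the quasi-likelihood spread was estimated again. The members, gene lists and tests were chosen with earlier results of these data known, and the comparisons at E15.5 and of the rise between tissues were added after the levels had been seen. The rule allowed any member to be named, at most 20 per comparison by absolute fold change, the leading 3 of each family by mean CPM in every group, and at most 4 genes of a list. Cell type markers served as labels of tissue content.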

Additional observations from a re-analysis of the deposited data

Results flagged for a closer look

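Index library 2 of E15.5 esophagus was outside the comparisons and carried a summed level of 30955.365 CPM over the 62 members, against 567 CPM in index library 1 and 821 and 936 CPM in the short-code libraries of the same tissue and age. It has no replicate, so no test was made and its cause was not tested. Groups of 2 libraries are too small for a search for single libraries far from their group.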

How the results depend on the processing

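No member or count changed direction under any alternative run. The counts of members called moved as follows, and unless a reason is given the cause was not tested. For E13.5 to E18.5 (20 members in esophagus, 12 in trachea, 22 in larynx), DESeq2 called 12 in esophagus and 14 in larynx, and the fit of all 40 libraries called 2, 1 and 3. For E18.5 esophagus minus trachea (0), no filter gave 13 and leaving out the 3 libraries with olfactory receptor counts gave 1. For E18.5 larynx minus trachea (6), DESeq2 and all 40 libraries gave 0, no filter 14 and the replicate block 2. For E18.5 larynx minus esophagus (1), all 40 libraries gave 0 and no filter 5. At E15.5, esophagus minus trachea (5) gave 35 with all 40 libraries, 11 with no filter and 9 without the 3 libraries. Larynx minus trachea at E15.5 (0) gave 3 with DESeq2, 15 with no filter and 5 without the 3 libraries. Larynx minus esophagus at E15.5 (0) gave 2 with TMM factors, 5 with all 40 libraries and 11 with no filter. For the difference in rise, larynx minus trachea (0) gave 3 with no filter, and larynx minus esophagus (0) gave 2 with DESeq2, 3 with no filter and 1 without the 3 libraries. E15.5 to P0 (30) and P0 to adult (39) gave 0 with all 10 index libraries and 0 with all 40. Both of those sets add the E15.5 esophagus index pair as replicates of one group. The age trend gave 6 in esophagus (20) with index library 2, 15 in trachea (8) with DESeq2, and 15 in larynx (47) with short-code libraries only, which have fewer ages and remove the kind of library.

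With single libraries left out, the counts ran from 11 to 24, 6 to 14 and 11 to 22 for E13.5 to E18.5 in esophagus, trachea and larynx, and from 11 to 16 for E10.5 to E13.5. At E18.5 they ran from 0 to 8 for esophagus minus trachea, 0 to 12 for larynx minus trachea and 0 to 2 for larynx minus esophagus. At E15.5 the same pairs gave 2 to 9, 0 to 9 and 0 to 7, and the differences in rise gave 0 to 0, 0 to 1 and 0 to 2. E15.5 to P0 gave 10 to 34 and P0 to adult 27 to 41, and the age trends 14 to 20, 4 to 10 and 40 to 50. Replicate numbers did not pair the libraries: over 105 pairs of groups the deviations of same-numbered libraries correlated at -0.204 to 0.341 (median -0.003, 13 over 0.1). With the replicate block 17, 10 and 19 members were called higher or lower for E13.5 to E18.5, and 37 and 42 for E15.5 to P0 and P0 to adult. Levels near 3 counts per library cannot be told from 0.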
